A study of Arabidopsis thaliana with 12 samples.

Results

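Transcript levels in pkl seedlings were set directly against those in the mutants of RNA-directed DNA methylation (RdDM), nrpd1 and nrpe1, over every annotated gene and transposable element (TE) of Arabidopsis thaliana. The 3 pkl libraries were compared with the mean of the 3 nrpd1 and 3 nrpe1 libraries, and 23669 of the 64791 annotated features had enough signal to be tested, 22704 genes and 965 TEs. The pkl plants carried pkl-1, described in the study as a strong loss-of-function allele in the Col background. The nrpd1 plants carried nrpd1-3, the nrpe1 plants nrpe1-11, and the wild type (WT) was Col, also with 3 libraries. The labels name the genotypes without alleles, and the allele names come from the methods of the study. All plants were seedlings about 2 weeks old, grown on plates without further treatment, and poly(A) RNA was sequenced from whole seedlings, so a fold change can reflect fewer cells of a type as well as less RNA per cell. No source used here says that the 3 libraries of a genotype came from separate plant pools, so p-values measure only the spread between these libraries.

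PICKLE (PKL) is a chromatin remodeler of the CHD3 family, known for keeping embryo and seed genes silent after germination and for acting with the repressive histone mark H3K27me3. RdDM silences TEs and repeats. RNA polymerase IV, whose largest subunit is NRPD1, makes precursors of small interfering RNAs, and RNA polymerase V, whose largest subunit is NRPE1, makes scaffold transcripts at which these small RNAs recruit DNA methylation. The study also reported that pkl changes DNA methylation at many RdDM loci and lowers RNA polymerase V transcripts at several tested loci. So pkl is not a mutant with intact methylation. A direct contrast asks which transcripts separate the loss of this remodeler from the loss of polymerase IV or V, whatever each mutant shares with the other relative to WT.

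Values are RPKM, the reads of a feature scaled by its length and by the library total. Differences are log2 fold changes, pkl over the mean of nrpd1 and nrpe1, on the log2(RPKM + 0.1) scale, which understates changes of low features. In very short features the added 0.1 is far less than the RPKM of 1 read, so a few reads can give a large fold change. They are given with their standard error (SE) and a p-value adjusted over all 23669 features by the Benjamini-Hochberg method (limma). A feature was called where the adjusted p was under 0.05 and the fold change at least 1 in size on the log2 scale. Library totals ran from 7204299 reads in nrpe1 replicate 2 to 21475250 in pkl replicate 2, and the next smallest was 15242073. Replicate 1 of every genotype stood apart from replicates 2 and 3 on principal component 1 (28% of the variance), pkl from the other genotypes on component 2 (20.1%) and nrpe1 replicate 2 on component 3 (11.4%). That library also had 0.729% chloroplast and 0.906% mitochondrial reads, against at most 0.355% and 0.161% in the others. Without it, 335 genes were higher and 274 lower, and with replicates 2 and 3 only 352 and 355.

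The transcripts of the genes mutated in each line came first. PKL (AT2G25170, chromosome 2, 10713807 to 10724106, plus strand) had 20.1, 21.3 and 26.6 RPKM in pkl, against 22.5, 17.7 and 21.7 in nrpd1 and 19.8, 21.5 and 20 in nrpe1. The groups overlapped (log2 fold change 0.14, SE 0.14, limma adjusted p = 0.720), so this level is no check of the pkl genotype. NRPE1 (AT2G40030, chromosome 2, 16714460 to 16723718, plus strand) had 0.874, 0.394 and 0.655 RPKM in nrpe1, against 2.05, 1.83 and 2.43 in pkl. NRPD1 (AT1G63020, chromosome 1, 23354685 to 23362589, minus strand) had 1.17, 0.764 and 1.15 RPKM in nrpd1, against 1.55, 1.15 and 1.62 in pkl and 2.21, 2.42 and 2.44 in nrpe1. Both RdDM mutants thus had the lowest mean level of the gene they lack, although NRPD1 overlapped between nrpd1 and pkl.

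In pkl, 364 genes were higher (1.60% of those tested) and 301 were lower (1.33%), and 20 TEs were higher (2.07%) and 64 were lower (6.63%), relative to the mean of both RdDM mutants. With voom on reads recovered from the RPKM values, 440 genes were higher and 273 lower. Of the 84 TEs called, 64 were lower in pkl. The median log2 fold change was 0.04 over all features, 0.05 over genes and -0.15 over TEs. Each of the 749 called features had the same sign in all 3 replicate numbers, a description, since the calls were made on these libraries. In 314 of the higher and 279 of the lower genes every pkl library lay beyond all 6 RdDM libraries, which 11.5% of all tested genes did. At an unadjusted p under 0.05, 4167 features differed (limma). With the replicate number as a block, 539 genes were higher and 481 lower. Without pkl replicate 2 the counts were 213 genes higher, 191 lower and 12 TEs higher, and without pkl replicate 3 they were 227, 171 and 12.

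**Figure D1:**
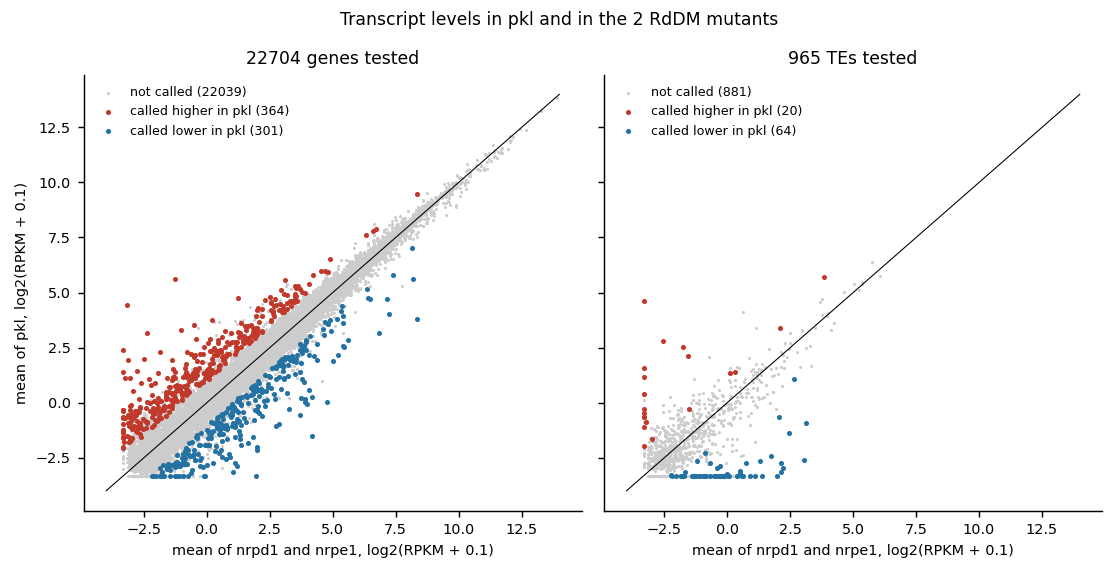
Mean log2(RPKM + 0.1) in pkl (vertical axis) against the mean of nrpd1 and nrpe1 (horizontal axis), 1 point per feature, for 22704 tested genes (left) and 965 tested TEs (right), with the line of equal levels. Called genes lie on both sides of the line, 364 above and 301 below, whereas 64 of the 84 called TEs lie below it, many at the lowest pkl level.

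The largest rise among genes was that of AT3G23060 (chromosome 3, 8200636 to 8203335, plus strand), which encodes a RING/U-box protein. It had 24.4, 18.8 and 21.9 RPKM in pkl, against 0.0301, 0.0528 and 0 in nrpd1, no reads in nrpe1, and 0.0620, 0 and 0.0575 in WT. The 2145 reads in pkl stood against 3 reads in the 6 RdDM libraries, a ratio of reads scaled by library total of 1319 (exact 95% counting interval 451 to 6399, log2 fold change 7.60, SE 0.24, limma adjusted p = 1.29e-07). PHE1 (AT1G65330, chromosome 1, 24266257 to 24267336, minus strand) encodes a MADS-box transcription factor known from the endosperm, where the paternal allele is expressed. It had 40.1, 63.3 and 46.9 RPKM in pkl, against 0.257, 0.282 and 0.572 in nrpd1, 0.0718, 0.496 and 0.456 in nrpe1, and 0.397, 0.937 and 1.59 in WT. PHE1 was thus 141-fold higher in pkl than in the RdDM mutants (log2 fold change 6.89, SE 0.47, limma adjusted p = 1.51e-05), with no overlap. AT4G29200 (chromosome 4, 14398054 to 14400198, minus strand), annotated as a beta-galactosidase related protein, had 2.69, 11.5 and 4.19 RPKM in pkl and no reads in the other 9 libraries. Against a floor of 3 reads per library it was at least 41.7-fold higher (log2 fold change 5.69, SE 0.38, limma adjusted p = 1.40e-05).

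Further genes of this kind were silent or nearly so outside pkl. AT3G01345 (chromosome 3, 129138 to 130749, plus strand), of unknown function, had 9.57, 10.5 and 6.6 RPKM in pkl, against 0.268, 0 and 0.537 in nrpd1, 0.0374, 0 and 0.0679 in nrpe1, and 0.138, 0.122 and 0 in WT. It was 58.6-fold higher (log2 fold change 5.50, SE 0.52, limma adjusted p = 1.44e-04). AT1G27565 (chromosome 1, 9574550 to 9575189, plus strand) had 3.53, 5.52 and 2.68 RPKM in pkl, against 1 read in the RdDM mutants and none in WT. All of its sequence, 100%, has a copy elsewhere in the genome at an identity of at least 95%, so its reads may belong in part to another locus. AT4G09880 (chromosome 4, 6214624 to 6215338, plus strand) had 1.79, 2.27 and 3.82 RPKM in pkl, no reads in nrpd1 or nrpe1, and 0.226, 0 and 0 in WT, a rise of at least 3.21-fold. AT1G03106 (chromosome 1, 748101 to 749034, minus strand) had 4.19, 3.19 and 4.16 RPKM in pkl, against 0 to 0.235 in the RdDM libraries and 0.179, 0.211 and 0.0552 in WT (40.1-fold, limma adjusted p = 1.43e-04). Neither gene has a named function in the annotation used. Among more abundant transcripts, AT2G40520 (chromosome 2, 16922337 to 16925961, plus strand), a nucleotidyltransferase family gene, had 22.8, 28.5 and 29.0 RPKM in pkl, against 3.41, 1.86 and 1.87 in nrpd1, 2.94, 1.88 and 2.13 in nrpe1, and 3.26, 3.29 and 2.79 in WT. The RdDM and WT libraries shared a narrow range while pkl was 11.4-fold above the RdDM mean (log2 fold change 3.49, SE 0.21, limma adjusted p = 1.09e-05).

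AT4G08093 (chromosome 4, 4990153 to 4991601, plus strand), a transcribed pseudogene, differed in another way. It had 1.89, 1.72 and 2.62 RPKM in pkl, against no reads in nrpd1, 0, 0 and 0.0375 in nrpe1, and 1.83, 2.29 and 4.24 in WT. Here pkl overlapped WT, and the transcript was nearly absent from both RdDM mutants, with 1 read against 165 in pkl (ratio 304, exact 95% counting interval 53.9 to 12091, log2 fold change 4.35, limma adjusted p = 1.17e-05). Pseudogenes as a class had 14 higher and 12 lower members among 273 tested, 5.13% and 4.4%, against 1.58% and 1.31% of protein-coding genes. A pseudogene was tested if it reached 0.1 RPKM in any 3 libraries, so a pseudogene on in a single group could pass. Shares without this filter were not computed for pseudogenes, so these shares are a description.

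**Figure D2:**
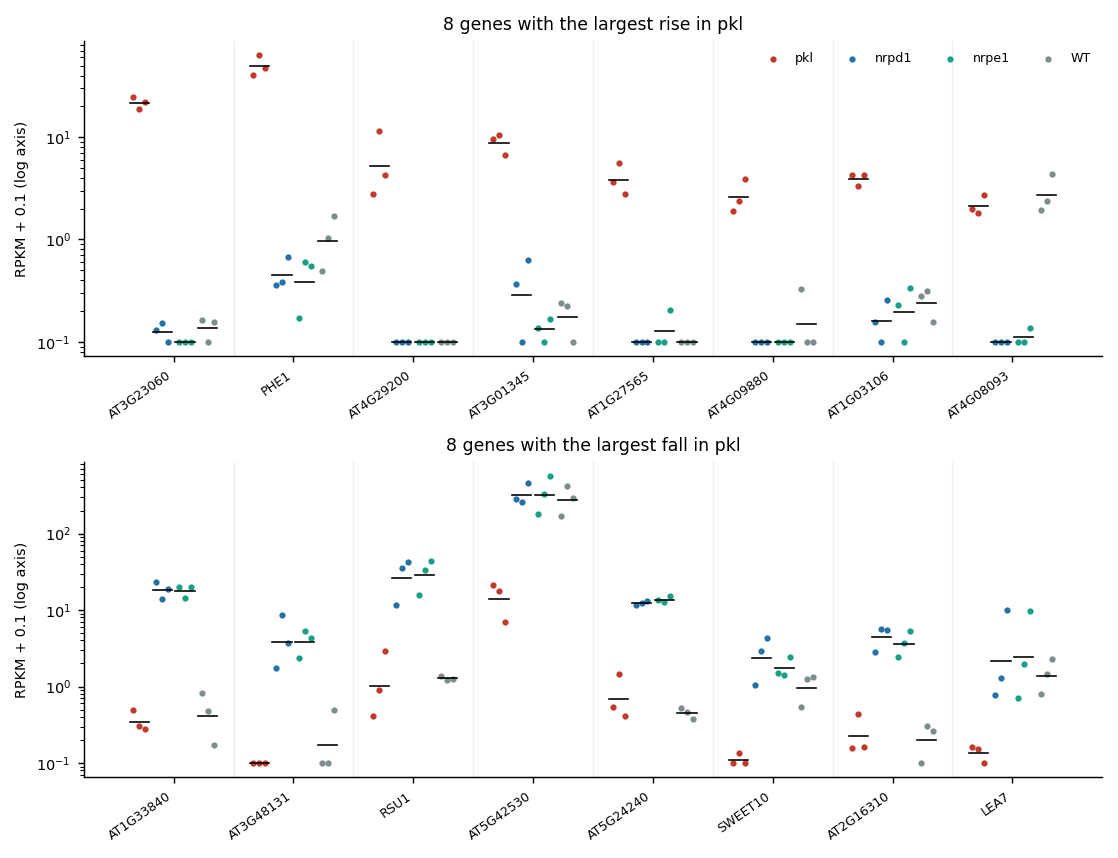
RPKM + 0.1 (log axis), with points for the 3 libraries of pkl, nrpd1, nrpe1 and WT and a bar at their geometric mean. Shown are the 8 genes with the largest rise (top) and the largest fall (bottom) in pkl relative to the RdDM mean. AT4G08093 is the gene of the upper panel whose WT points lie with pkl, and AT5G42530 in the lower panel has WT points with the RdDM mutants, between 168 and 413 RPKM.

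Runs were read along the tested genes in chromosome order, so untested genes may lie between their members. By this rule genes called higher were adjacent in 11 places, which together held 25 genes. The largest run was 5 genes over 15 kb of chromosome 5 (2382381 to 2397423), GRP17, GRP19, GRP20, AT5G07570 and AT5G07571. The GRP genes encode glycine-rich oleosins of the pollen coat, known from the tapetum of the anther, and AT5G07571 is an oleosin family gene. GRP17 and GRP19 are members of a list of anther and pollen genes, and the rest of the run was singled out after its values were seen. The 250 bases before the annotated start of GRP17, GRP19 and GRP20 are shown because these genes rose together, and those of MBP1 and MBP2, described below, because that neighbouring pair fell together. They are read from the TAIR10.1 genome with RefSeq gene starts, on the coding strand of each gene (all minus), with ACGTG or its reverse complement CACGT in capitals. ACGTG is the core of elements bound by bZIP factors, and the overlapping palindrome CACGTG is the G-box.
GRP17 (chr5:2384526-2384775): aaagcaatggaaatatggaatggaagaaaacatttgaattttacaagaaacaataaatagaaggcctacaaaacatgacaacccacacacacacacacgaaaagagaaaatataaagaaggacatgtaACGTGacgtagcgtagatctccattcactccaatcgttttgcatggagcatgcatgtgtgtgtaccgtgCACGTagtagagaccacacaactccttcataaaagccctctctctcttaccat
GRP19 (chr5:2389250-2389499): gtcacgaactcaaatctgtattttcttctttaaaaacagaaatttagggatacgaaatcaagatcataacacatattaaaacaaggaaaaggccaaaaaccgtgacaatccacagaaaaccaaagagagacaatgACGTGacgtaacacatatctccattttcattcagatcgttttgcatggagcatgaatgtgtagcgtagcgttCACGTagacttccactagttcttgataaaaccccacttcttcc
GRP20 (chr5:2391440-2391689): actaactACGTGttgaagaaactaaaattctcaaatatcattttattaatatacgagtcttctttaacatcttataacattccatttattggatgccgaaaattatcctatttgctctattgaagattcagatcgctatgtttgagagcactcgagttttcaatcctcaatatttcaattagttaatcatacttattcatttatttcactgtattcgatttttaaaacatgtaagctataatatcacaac
MBP1 (chr1:19352792-19353041): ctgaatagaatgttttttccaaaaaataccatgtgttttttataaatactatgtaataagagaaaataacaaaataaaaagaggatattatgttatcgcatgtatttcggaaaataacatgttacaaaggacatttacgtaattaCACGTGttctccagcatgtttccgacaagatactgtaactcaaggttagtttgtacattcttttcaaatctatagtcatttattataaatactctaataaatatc
MBP2 (chr1:19349089-19349338): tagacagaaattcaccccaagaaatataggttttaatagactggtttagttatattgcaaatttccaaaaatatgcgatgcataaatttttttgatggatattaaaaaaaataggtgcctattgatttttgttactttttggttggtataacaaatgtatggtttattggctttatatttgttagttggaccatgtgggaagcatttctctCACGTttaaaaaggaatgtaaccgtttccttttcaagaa

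GRP17 and GRP19 have similar layouts in this window, with matches that begin 122 and 53 bases before the start of GRP17 and 115 and 43 bases before that of GRP19. GRP20 has a single match, 243 bases before its start. MBP1 has a full CACGTG whose matches begin 105 and 104 bases before the start, and MBP2 has 1 match at 39 bases. Over windows from 250 bases before to 50 bases after the start, with both strands searched, ACGTG was present in 34.9% of the genes called higher, 33.7% of the 300 genes called lower that had a window, 27.9% of 22514 tested genes and 24.6% of all 37897 windows. Outside CACGTG the shares were 31.9%, 28.7%, 22.2% and 20.1%. CACGTG itself was in 4.67% of the higher, 8.33% of the lower and 8.42% of the tested genes. The other letters searched were CCGAC, in 14%, 11.7% and 15.7% of these sets, AAATATCT in 7.97%, 6% and 5.93%, AAACCCTA in 4.4%, 4.67% and 5.53%, and GAGAGAGA in 8.52%, 9.67% and 8.54%. These are descriptions of letters in a window and not of bound sites.

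GRP19 (AT5G07550) was the most abundant gene of the run, with 15.3, 11.5 and 13.5 RPKM in pkl, against 1.41, 0.801 and 1.04 in nrpd1, 1.02, 1.49 and 0.758 in nrpe1, and 1.54, 0.505 and 0.317 in WT. It was 12.4-fold higher in pkl (log2 fold change 3.54, SE 0.38, limma adjusted p = 3.74e-04). GRP17 (AT5G07530) had 0.324, 0.449 and 1.34 RPKM in pkl, against at most 0.0743 in the RdDM libraries and no reads in WT (log2 fold change 2.48, SE 0.39, limma adjusted p = 0.00384). GRP20 (AT5G07560) had 2.56, 2.59 and 3.49 RPKM in pkl, against 0.363 to 0.701 in the RdDM libraries and 0.435 to 1.02 in WT. AT5G07570, a glycine/proline-rich protein gene, had 1.21, 2.09 and 3.07 RPKM in pkl, against 0.0534 to 0.170 in the RdDM libraries. AT5G07571 had 1.58, 0.851 and 1.55 RPKM in pkl, against 0.282 to 0.725. In each of the 5 genes all pkl libraries lay above all RdDM libraries. The other 9 of the 11 anther and pollen genes had too little signal to be tested, and DUO1, MS1 and AGL66, regulators of pollen or tapetum, had no reads in any library.

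Among the genes lower in pkl than in the RdDM mutants, AT1G33840 (chromosome 1, 12283725 to 12285371, minus strand), a LURP-one-like gene, had the largest difference. It had 0.397, 0.202 and 0.181 RPKM in pkl, against 22.8, 13.7 and 18.7 in nrpd1, 19.8, 14.2 and 19.8 in nrpe1, and 0.721, 0.379 and 0.0743 in WT. The RdDM libraries were thus 69.8-fold above pkl, with pkl and WT overlapping (log2 fold change -5.69, SE 0.41, limma adjusted p = 2.66e-05). Its neighbour AT1G33850, annotated as a ribosomal protein S19 family gene and chosen after its values were seen, had 0.776, 0.219 and 0.294 RPKM in pkl, against 5.19 to 8.49 in the RdDM libraries and none in WT. AT3G48131 (chromosome 3, 17775456 to 17775587, minus strand), of unknown function, was without reads in pkl, against 1.63, 8.6 and 3.64 RPKM in nrpd1, 2.28, 5.26 and 4.15 in nrpe1, and 0, 0 and 0.390 in WT, at least 3.42-fold lower. It overlaps the transcribed pseudogene RSU1 (AT3G48130, 17774877 to 17775575) on the same strand, so reads of the overlap cannot be told apart. RSU1 had 0.311, 0.789 and 2.83 RPKM in pkl, against 11.6, 35.8 and 41.8 in nrpd1, 15.7, 32.9 and 43.9 in nrpe1, and 1.26, 1.11 and 1.16 in WT (log2 fold change -4.73, SE 0.59, limma adjusted p = 9.72e-04). In these 4 genes both RdDM mutants stood above pkl and WT alike.

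AT5G24240 (chromosome 5, 8230916 to 8234150, minus strand) encodes a phosphatidylinositol 4-kinase gamma-like protein and overlaps a gene on the other strand. It had 0.440, 1.35 and 0.316 RPKM in pkl, against 11.5, 12.2 and 13 in nrpd1, 13.3, 12.7 and 15 in nrpe1, and 0.420, 0.358 and 0.281 in WT (log2 fold change -4.24, SE 0.32, limma adjusted p = 3.55e-05). The transcribed pseudogene AT2G16310 (chromosome 2, 7065216 to 7066190, minus strand) had 0.0565, 0.334 and 0.0642 RPKM in pkl, against 2.35 to 5.48 in the RdDM libraries and 0, 0.202 and 0.158 in WT (log2 fold change -4.16, SE 0.46, limma adjusted p = 4.4e-04). Both again had WT with pkl.

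AT5G42530 and SWEET10 were lower in pkl than in WT as well. AT5G42530 (chromosome 5, 17004738 to 17005510, minus strand), of unknown function, was the most abundant of them. It had 21.1, 17.6 and 6.90 RPKM in pkl, against 287, 258 and 458 in nrpd1, 179, 332 and 561 in nrpe1, and 168, 413 and 288 in WT (log2 fold change -4.55, SE 0.44, limma adjusted p = 1.70e-04). The RdDM mean was 22.8 times the pkl mean, and the RdDM and WT ranges overlapped. SWEET10 (AT5G50790, chromosome 5, 20656193 to 20658001, minus strand), of the SWEET family of sugar transporters, had 1 read in pkl, against 0.948, 2.80 and 4.18 RPKM in nrpd1, 1.40, 1.33 and 2.36 in nrpe1, and 0.444, 1.15 and 1.23 in WT. Its ratio of scaled reads, RdDM over pkl, was 163 (exact 95% counting interval 29.0 to 6446, log2 fold change -4.19, SE 0.44, limma adjusted p = 3.23e-04). LEA7 (AT1G52690, chromosome 1, 19619724 to 19621534, plus strand), a late embryogenesis abundant protein gene of dry or stressed tissue, had 0.0624, 0.0527 and 0 RPKM in pkl. In the RdDM mutants it varied by replicate number, with 0.672, 1.18 and 10.02 RPKM in nrpd1 and 0.615, 1.89 and 9.73 in nrpe1, and WT had 0.692, 1.34 and 2.22. Its call (log2 fold change -4.07, SE 0.89, limma adjusted p = 0.0237) was lost without pkl replicate 1, 2 or 3, at adjusted p-values of 0.0642, 0.0887 and 0.112, with only the compared genotypes (0.0540), with a pseudocount of 1 (0.164) and with voom on recovered reads (0.179). Against WT, LEA7 was not called in pkl (log2 fold change -3.35, limma adjusted p = 0.125).

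Among the tested genes, those called lower were adjacent in 21 places with 45 genes. The longest run was AT3G32030, AT3G32040, AT3G32047 and AT3G32240 on chromosome 3, consecutive among tested genes but spread over 180 kb. AT3G29635, AT3G29636 and AT3G29639 formed a run of 3 within 14.3 kb of the same chromosome. AT3G29639, chosen here after its values were seen, had 0.686, 1.08 and 1.00 RPKM in pkl, against 32.3, 26.9 and 23.7 in nrpd1, 10.3, 6.17 and 8.28 in nrpe1, and 0, 0.350 and 0.0916 in WT. Pairs of known genes among the runs were VSP2 with VSP1, MBP2 with MBP1, and LURP1 with PRB1.

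Among tested features, TEs were called more often than genes, though at low levels, with a median of 0.277 RPKM over TEs against 8.47 over genes. A feature was tested if it reached 0.1 RPKM in any 3 libraries, so a TE on in a single group could pass. Without this filter, 21 of 2864 TEs with any read were higher and 64 lower. For genes the counts were 365 higher and 280 lower of 25266, so the share of TEs called depends on the filter. The 64 TEs lower in pkl summed to 2.31, 2.98 and 4.45 RPM (reads scaled by library total, without feature length) in pkl, against 97.7, 136 and 128 in nrpd1, 84.7, 118 and 113 in nrpe1, and 2.22, 4.66 and 2.47 in WT. Since these TEs were called on this contrast, the sums describe them and are not a further test. In pkl, 42 of the 64 had no read in any library, and in WT 47 had none. Between 11 and 15 of them had a read in a given pkl library, against 58 to 63 in an RdDM library and 9 to 12 in a WT library. WT lay nearer to pkl than to the RdDM mean in 61 of the 64, and the exceptions were AT1TE85165, AT4TE44655 and AT5TE36475. All 3 pkl libraries lay beyond all 6 RdDM libraries in 52 of the lower and 20 of the higher TEs, which 9.43% of the tested TEs did in either direction.

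AT2TE69490 had 0.0438, 0 and 0 RPKM in pkl, against 3.00, 5.68 and 4.28 in nrpd1, 4.13, 4.86 and 4.36 in nrpe1, and no reads in WT. Its 563 reads in the RdDM mutants stood against 1 in pkl (log2 fold change -5.29, SE 0.23, limma adjusted p = 1.31e-06). AT3TE76405 had no reads in pkl or WT, against 2.31, 5.53 and 5.07 RPKM in nrpd1 and 2.88, 3.54 and 4.37 in nrpe1, at least 29.2-fold lower in pkl. AT1TE58825 had 0, 0.111 and 0 RPKM in pkl, against 3.34, 5.74 and 5.49 in nrpd1, 3.35, 5.28 and 4.99 in nrpe1, and 0.0440, 0 and 0 in WT (log2 fold change -5.19, SE 0.31, limma adjusted p = 9.84e-06). Reads of these 3 elements were thus present in every RdDM library and absent from nearly every other. TE positions were not available here, so overlap with genes and copies elsewhere were not checked for any TE. Reads counted for a TE may therefore belong to another locus. AT3TE62065 had 0, 0.344 and 0 RPKM in pkl, against 13.5, 7.33 and 5.68 in nrpd1, 14, 5.12 and 7.88 in nrpe1, and 0.615, 0 and 0.950 in WT (log2 fold change -5.67, SE 0.74, limma adjusted p = 0.00140). AT3TE72000 had 0, 0 and 0.229 RPKM in pkl, against 5.93, 8.15 and 7.75 in nrpd1, 3.31, 1.02 and 5.01 in nrpe1, and none in WT (log2 fold change -4.90, SE 0.49, limma adjusted p = 2.10e-04). It is next to AT3TE72005, also lower, in the order of TE identifiers, and 6 such runs held 13 of the lower TEs, the longest being AT4TE44405, AT4TE44410 and AT4TE44415. The lower TEs were on all 5 chromosomes, between 9 and 18 on each.

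The 20 TEs higher in pkl summed to 37.2, 58.0 and 56.7 RPM in pkl, against 7.88, 8.75 and 8.89 in nrpd1, 7.18, 8.19 and 6.84 in nrpe1, and 11.2, 11.4 and 12.1 in WT. All 20 had a read in each pkl library, and 10 had none in any RdDM library. WT lay nearer to the RdDM mean in 18 of them and above pkl in AT2TE26610 and AT2TE22815. AT5TE34435 had 15.5, 24.7 and 39.1 RPKM in pkl, from 9, 17 and 20 reads, and no reads in the other 9 libraries, at least 4.20-fold higher (log2 fold change 7.95, SE 0.27, limma adjusted p = 1.56e-07). Its recovered length is only 32 bases, so few reads gave a high RPKM and a log2 fold change far above this bound. AT5TE47170 had 2.77, 8.51 and 13.7 RPKM in pkl, against none in nrpd1, 0.275, 0 and 0.500 in nrpe1 and none in WT, with 99 reads in pkl and 3 in the RdDM mutants (ratio 60.9, exact 95% counting interval 20.2 to 300). AT3TE92805 had 9 reads over the pkl libraries and AT4TE26325 had 11, with none in any other library, which is too close to the floor for a fold change. AT2TE09670 had 2.34, 6.44 and 12.0 RPKM in pkl, against 0.574, 0 and 0.511 in nrpd1, 0, 1.48 and 0 in nrpe1, and 0.591, 0.698 and 0 in WT. Its call (log2 fold change 4.30, SE 1.06, limma adjusted p = 0.0422) was lost in most of the leave-one-out fits, among them those without pkl replicate 1, 2 or 3, at adjusted p-values of 0.0587, 0.156 and 0.186.

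**Figure D3:**
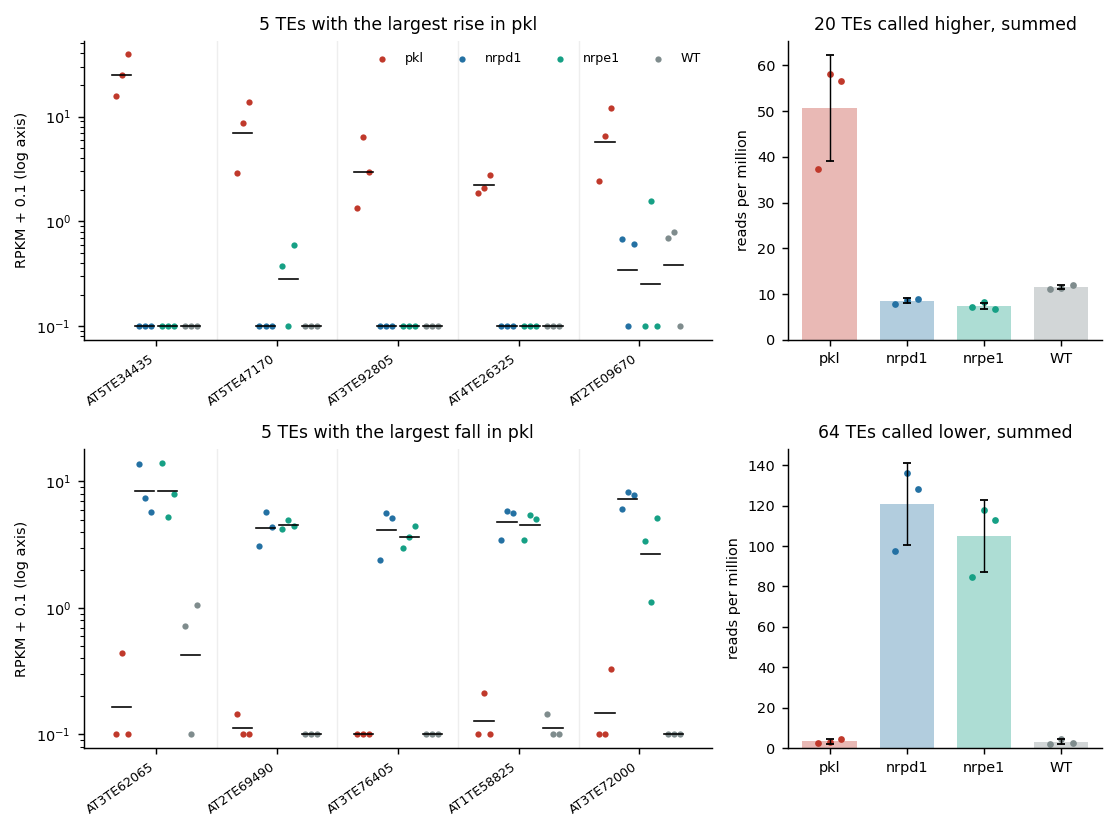
Left, RPKM + 0.1 (log axis), with points for libraries and a bar at the geometric mean. Shown there are the 5 TEs with the largest rise (top) and fall (bottom) in pkl relative to the RdDM mean. Right, RPM (reads scaled by library total) summed over the 20 TEs called higher and the 64 called lower, with points for libraries and bars for means. The higher TEs sum to 37.2 to 58.0 in pkl and to at most 12.1 elsewhere, and the lower TEs to 84.7 to 136 in the RdDM mutants and to at most 4.66 in pkl and WT.

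Of the loci singled out by the study, ROS1 is described below, and the other 3 were not called by this test. AT1G60110 (chromosome 1, 22168424 to 22170803, plus strand), a mannose-binding lectin gene, had 7.76, 4.82 and 4.25 RPKM in pkl, against 6.39, 4.92 and 5.62 in nrpd1, 12.1, 7.11 and 11.0 in nrpe1, and 1.98, 1.68 and 1.58 in WT. The pkl and nrpd1 ranges overlapped (log2 fold change against both mutants -0.45, SE 0.22, limma adjusted p = 0.329). AT1TE42205 had 1.09, 1.68 and 2.27 RPKM in pkl, against 2.13, 2.96 and 5.06 in nrpd1, 3.77, 5.94 and 9.36 in nrpe1, and 0, 0.216 and 0.678 in WT. It was not called (log2 fold change -1.38, SE 0.56, limma adjusted p = 0.224), but was lower in pkl with the replicate block (adjusted p = 0.00976). AT2TE82000 had 3.27, 2.13 and 1.52 RPKM in pkl, against 1.16, 1.66 and 1.68 in nrpd1, 11.5, 4.86 and 7.23 in nrpe1, and 0.599, 0.177 and 0 in WT, with pkl inside the range of the RdDM libraries (limma adjusted p = 0.658). In all 3 loci every pkl library lay above every WT library. The study had chosen them as raised in pkl in its RNA-seq, so this is a description and not a further test.

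WT values were set beside each difference. WT lay nearer to the RdDM mean in 257 of the 364 higher genes (70.6%) and 246 of the 301 lower genes (81.7%), and nearer to pkl in 107 (29.4%) and 55 (18.3%). For the lower TEs the order was the other way round, with WT nearer to pkl in 95.3%. All 3 WT libraries lay between the pkl and the RdDM libraries in 14 of the higher and 11 of the lower genes. Because the same pkl and RdDM libraries enter every comparison with WT, these counts are a description. The same shares over all tested genes and TEs, called or not, were not counted. The comparison of pkl with WT called 449 features (1.90%), and that of the RdDM mean with WT called 122 (0.515%). The first of these was 271 without pkl replicate 2, 265 without pkl replicate 3, 282 without WT replicate 1, 265 without WT replicate 2 and 829 with the replicate block.

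**Figure D4:**
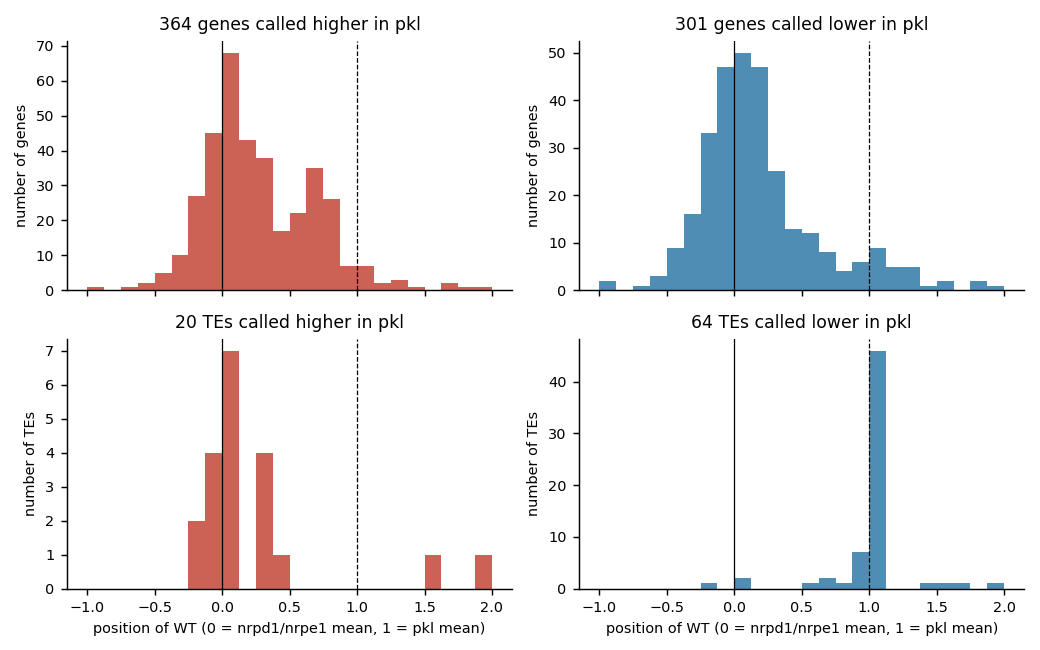
Number of called features (vertical axis) by the position of the WT mean between the RdDM mean (0) and the pkl mean (1) on the log2(RPKM + 0.1) scale (horizontal axis), for genes and TEs called higher and lower in pkl. WT lies nearer to the RdDM mean in 257 of 364 higher genes, 246 of 301 lower genes and 18 of 20 higher TEs, and nearer to pkl in 61 of 64 lower TEs.

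The mean of both RdDM mutants does not stand for each of them at every gene. Against nrpd1 alone 692 features were called in pkl (2.92%), and against nrpe1 alone 527 (2.23%). Between nrpd1 and nrpe1, 145 differed (0.613%), 121 of them genes lower in nrpd1. Of the 364 genes higher in pkl, 167 were called against each RdDM mutant alone, 117 only against nrpd1, 41 only against nrpe1 and 39 against neither. nrpd1 and nrpe1 themselves differed in 72 of these 364 genes, with nrpd1 the lower in 69. Of the 301 lower genes only 10 differed between nrpd1 and nrpe1, of the 64 lower TEs 7, and of the 20 higher TEs none was called (limma). Without nrpe1 replicate 2 or 3, 76 and 81 features differed between nrpd1 and nrpe1, and in a fit of those 6 libraries alone 6 did. Against nrpe1 alone, 301 features were called without pkl replicate 2 and 303 without pkl replicate 3, and against nrpd1 alone 455 without pkl replicate 3. With the replicate block 1041 features were called against nrpd1 and 911 against nrpe1.

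Some genes were carried by a single RdDM mutant. AT3G32240 and AT4G03156, singled out after their values were seen, had 9.48, 8.17 and 8.03 RPKM and 6.44, 9.49 and 11.7 RPKM in nrpe1 and no reads in pkl, nrpd1 or WT. MRD1 (AT1G53480, chromosome 1, 19963047 to 19964712, minus strand) had 30.7, 34.7 and 38.0 RPKM in pkl, against 25.3, 34.0 and 29.3 in nrpd1, 1.83, 2.44 and 1.53 in nrpe1, and 29.0, 30.3 and 30.7 in WT. Its call in pkl (log2 fold change 2.17, SE 0.15, limma adjusted p = 1.51e-05) thus rests on nrpe1, and nrpd1 and nrpe1 differed from each other by 3.88 (limma adjusted p = 1.38e-06). MRD1 overlaps 2 genes on the other strand, whose reads cannot be told apart unless counting used strand.

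ROS1 (AT2G36490, chromosome 2, 15307907 to 15314807, minus strand) encodes a DNA demethylase, and plants that lose methylation are known to make less of its transcript. It had 1.73, 2.00 and 2.11 RPKM in pkl, against 0.0572, 0.01004 and 0.0102 in nrpd1, 1.05, 1.18 and 0.976 in nrpe1, and 11.2, 11.1 and 15.6 in WT. ROS1 was thus below WT in every mutant library and highest, among the mutants, in pkl, where it was 3.56 times the RdDM mean (log2 fold change 2.42, SE 0.19, limma adjusted p = 4.04e-05). The log2 difference was 4.04 against nrpd1 (limma adjusted p = 7.10e-06) and 0.81 against nrpe1, where it was not called (limma adjusted p = 0.0797). Of 7 genes listed as sensitive to methylation, 5 were tested. ROS1 and MRD1 were called higher and none lower (1.60% and 1.33% of all tested genes). The median log2 fold change was 0.21, against 0.04 over all features. SDC, an F-box gene silenced by methylation at repeats in its promoter, had 0.863, 0.73 and 0.848 RPKM in pkl, against 1.65, 1.55 and 0.856 in nrpd1, 1.25, 1.48 and 2.11 in nrpe1, and 0.0791, 0.0935 and 0.0367 in WT, and was not called (limma adjusted p = 0.133). FWA and QQS had too little signal to be tested.

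Genes of the DNA methylation machinery itself differed little between pkl and the RdDM mutants. Of 47 genes, 46 were tested, 2 were higher and none was lower (1.60% and 1.33% of all tested genes), with a median log2 fold change of 0.02. VIM4 (AT1G66040, chromosome 1, 24583740 to 24586760, minus strand), of a family that binds methylated CG sites, had 0.265, 0.448 and 0.302 RPKM in pkl, against 0 to 0.144 in the RdDM libraries and 0.0594, 0.0702 and 0.0827 in WT (log2 fold change 1.32, SE 0.29, limma adjusted p = 0.0245). A copy elsewhere covers 81.4% of VIM4. AGO9 (AT5G21150, chromosome 5, 7192239 to 7198381, plus strand), an Argonaute known from the ovule, had 0.365, 0.339 and 0.394 RPKM in pkl, against 0.161, 0.125 and 0.207 in nrpd1, 0.0400, 0.0920 and 0.127 in nrpe1, and 0.0552 to 0.109 in WT (log2 fold change 1.09, SE 0.25, limma adjusted p = 0.0309). Neither call held without pkl replicate 1, 2 or 3, at adjusted p-values of 0.0515, 0.143 and 0.0861 for VIM4 and 0.0978, 0.109 and 0.132 for AGO9. VIM4 was also lost without nrpd1 replicate 2 or 3 (0.0509 and 0.0554), and AGO9 without nrpd1 replicate 1 or 2 (0.0562 and 0.0662) or nrpe1 replicate 1 (0.0515). With the replicate block 3 genes of this list were higher, VIM2 being the addition (adjusted p = 0.0509 without the block).

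Chromatin genes close to PKL in function were not called. Of 9 genes of Polycomb repressive complex 2 and its reader, 8 were tested and none was called, with log2 fold changes from -0.05 to 0.55. SWN, a methyltransferase for H3K27, had 16.6, 18.7 and 23.1 RPKM in pkl, against 13, 12.0 and 13.8 in nrpd1 and 12.4, 14.4 and 13.5 in nrpe1, apart from them but under the fold threshold. Of 4 CHD remodeler genes 3 were tested and none was called, and of 9 replication genes none was called, with a median of 0.21.

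Seed and embryo genes were low in all groups. Of 23 such genes, 11 had enough signal to be tested. SESA4 was higher and none was lower (1.60% and 1.33% of all tested genes), and the median log2 fold change was 0.88. SESA4 (AT4G27170, chromosome 4, 13613596 to 13614283, plus strand), a 2S albumin storage protein gene, had 1.28, 0.948 and 0.910 RPKM in pkl, against 0, 0.0688 and 0.0699 in nrpd1, 0, 0.404 and 0 in nrpe1, and 0, 0 and 0.0749 in WT (log2 fold change 2.86, SE 0.51, limma adjusted p = 0.00786). Other storage protein genes had their reads mainly in pkl replicate 1. SESA1 had 5.33, 0 and 0.624 RPKM and SESA2 8.92, 0 and 0.937 in pkl, with none in the other 9 libraries, and CRA1, a cruciferin gene, had 3.54, 0.0520 and 0.210 in pkl, against at most 0.188 in the RdDM libraries. LEC1, the regulator of embryo identity, had no reads in any library. With replicates 2 and 3 only, SESA4 was not called (limma adjusted p = 0.0833). Summed over the list, pkl had 15.6 to 41.6 RPKM, nrpd1 10.3 to 12.2, nrpe1 9.55 to 11.6 and WT 9.79 to 12.7.

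Flowering and meristem regulators moved in both directions. FLC (AT5G10140, chromosome 5, 3173382 to 3179448, minus strand), a MADS-box repressor of flowering, had 0.828, 0.437 and 0.647 RPKM in pkl, against 4.46, 5.69 and 4.42 in nrpd1, 3.17, 4.04 and 3.29 in nrpe1, and 2.61, 2.77 and 2.47 in WT. Every pkl library lay below every other library (log2 fold change -2.55, SE 0.18, limma adjusted p = 2.66e-05), and FLC overlaps a gene on the other strand. Its relatives MAF4 and MAF5, neighbours on chromosome 5 (25992193 to 26002619, plus strand), went the other way. MAF4 (AT5G65070) had 5.79, 7.18 and 6.30 RPKM in pkl, against 1.61, 1.5 and 1.22 in nrpd1, 1.42, 1.01 and 0.943 in nrpe1, and 1.31, 3.09 and 2.57 in WT (log2 fold change 2.26, SE 0.25, limma adjusted p = 4.31e-04). MAF5 (AT5G65080) had 3.39, 8.98 and 8.29 RPKM in pkl, against 1.10 to 2.75 in the RdDM libraries and 1.5, 3.73 and 3.41 in WT (log2 fold change 1.81, SE 0.39, limma adjusted p = 0.0218), a call lost without pkl replicate 2 or 3 (adjusted p = 0.124 and 0.119). Of 10 flowering time genes tested, these 2 were higher and FLC lower (1.60% and 1.33% of all tested genes), with a median of 0.12.

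Of 13 floral MADS-box genes, 12 were tested, 3 were lower and none higher, against 1.33% and 1.60% of all tested genes. The median log2 fold change was -0.87. FUL (AT5G60910, chromosome 5, 24502434 to 24506269, minus strand), active in meristems and fruit, had 0.195, 0.536 and 0.388 RPKM in pkl, against 1.05, 1.76 and 2.04 in nrpd1, 1.12, 1.48 and 1.75 in nrpe1, and 1.62, 1.92 and 1.64 in WT (log2 fold change -1.82, SE 0.28, limma adjusted p = 0.00341). SEP1 (AT5G15800, chromosome 5, 5151334 to 5154253, minus strand), of the SEPALLATA floral organ genes, had 0.0767, 0.0973 and 0.0436 RPKM in pkl, against 0.252 to 0.669 in the RdDM libraries and 0.155 to 0.320 in WT (log2 fold change -1.62, SE 0.30, limma adjusted p = 0.00959). AG (AT4G18960, chromosome 4, 10382856 to 10388539, plus strand), which specifies stamens and carpels, had 0.0679, 0.0574 and 0 RPKM in pkl, against 0.149 to 0.296 in the RdDM libraries and 0.0953 to 0.171 in WT (log2 fold change -1.12, SE 0.26, limma adjusted p = 0.0344). These levels are a few reads per library. The call of SEP1 was lost without pkl replicate 3 (adjusted p = 0.0579), and that of AG without any one of 11 of the 12 libraries, the exception being WT replicate 3, at adjusted p-values from 0.0517 to 0.161. With the block 4 floral genes were lower, AP1 being added, and PI was higher (adjusted p = 0.152 without the block). Of 4 KNOX genes, STM (AT1G62360, chromosome 1, 23058582 to 23062063, minus strand), which maintains the shoot meristem, was lower, with 1.37, 1.88 and 1.33 RPKM in pkl, against 2.93, 3.71 and 4.87 in nrpd1, 3.19, 3.56 and 3.41 in nrpe1, and 2.81, 3.75 and 3.78 in WT (log2 fold change -1.19, SE 0.19, limma adjusted p = 0.00394). Of 20 gibberellin genes none was called (GA3OX2 was higher and GA2OX1 lower with the block), with a median of 0.13.

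Of 10 genes of defense and storage, known to respond to jasmonate or salicylic acid, 4 were lower in pkl and none was higher. Over all tested genes, 1.33% were lower and 1.60% higher. The called genes were VSP1 with VSP2 and MBP1 with MBP2, each a neighbouring pair, and the list median log2 fold change was -1.37. MBP1 (AT1G52040, chromosome 1, 19350314 to 19352791, minus strand), a myrosinase-binding protein of the glucosinolate system, had 2.52, 2.30 and 1.01 RPKM in pkl, against 11.8, 14 and 14.4 in nrpd1, 15.7, 13.5 and 17.1 in nrpe1, and 4.86, 5 and 3.98 in WT. WT lay between pkl and both RdDM mutants here, without overlap (log2 fold change -2.92, SE 0.24, limma adjusted p = 6.82e-05). Its neighbour MBP2 (AT1G52030, 19345871 to 19349088) had 0.987, 0.941 and 0.692 RPKM in pkl, against 1.81, 1.15 and 1.47 in nrpd1, 2.30, 2.75 and 2.46 in nrpe1, and 2.82, 2.93 and 2.34 in WT (log2 fold change -1.06, SE 0.18, limma adjusted p = 0.00629). Without pkl replicate 3 or nrpd1 replicate 1 it fell under the fold threshold, at -0.92 and -0.98. The promoters of both are among the sequences shown above.

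VSP1 (AT5G24780, chromosome 5, 8507590 to 8509201, minus strand), a vegetative storage protein gene, had 3.22, 2.09 and 2.35 RPKM in pkl, against 8.48, 11.0 and 11.8 in nrpd1, 14, 14 and 22.2 in nrpe1, and 14.7, 15.9 and 12.4 in WT (log2 fold change -2.33, SE 0.19, limma adjusted p = 6.97e-05). VSP2 (AT5G24770, 8500468 to 8502224), next to it, had 16, 13.2 and 8.6 RPKM in pkl, against 33.2, 25.6 and 40.9 in nrpd1, 58.0, 44.3 and 69.1 in nrpe1, and 69.7, 80.6 and 51.3 in WT (log2 fold change -1.80, SE 0.23, limma adjusted p = 0.00128). LOX2, a lipoxygenase of jasmonate synthesis, had 169, 144 and 90.7 RPKM in pkl, against 23.7 to 94.0 in the RdDM libraries. It was not called in the main fit (limma adjusted p = 0.0954) and was higher with the block (limma adjusted p = 0.01003). Without nrpd1 replicate 1, 1 gene of this list was higher and 3 were lower. PR1 and PDF1.3 were added to the lower genes by the block, which gave 6 lower and 1 higher. Of 14 cold-regulated genes, KIN1 (AT5G15960, chromosome 5, 5209717 to 5210826, plus strand) alone was called. It had 14.4, 10.3 and 4.68 RPKM in pkl, against 111, 97.6 and 129 in nrpd1, 118, 89.3 and 141 in nrpe1, and 184, 159 and 128 in WT (log2 fold change -3.65, SE 0.30, limma adjusted p = 6.03e-05). The list median was -0.41, and RD29A had 43.5, 42.1 and 24.4 RPKM in pkl, against 45.1 to 86.0 in the RdDM libraries (limma adjusted p = 0.139).

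Root hair genes stood apart in nrpd1. All 13 genes of this list were tested, 4 were higher and 1 was lower, against 1.60% and 1.33% of all tested genes. The median log2 fold change was 0.97, but it was 2.28 against nrpd1 and 0.02 against nrpe1. Summed levels were 80.2 to 99.7 RPKM in pkl, 21.2 to 34.5 in nrpd1, 69.9 to 112 in nrpe1 and 67.9 to 81.4 in WT, so nrpd1 alone stood apart. EXPA18 (AT1G62980, chromosome 1, 23331563 to 23333246, plus strand), an expansin of growing root hairs, had 10.7, 12.6 and 10.1 RPKM in pkl, against 0.162, 1.32 and 1.34 in nrpd1, 8.55, 10.1 and 10.7 in nrpe1, and 9.09, 9.43 and 9.41 in WT (log2 fold change 1.98, SE 0.45, limma adjusted p = 0.0281). EXPA7 (AT1G12560, chromosome 1, 4276505 to 4277969, plus strand), another expansin, had 9.28, 9.69 and 7.52 RPKM in pkl, against 0.470, 1.69 and 1.12 in nrpd1, 6.13, 5.91 and 5.09 in nrpe1, and 5.70, 6.22 and 5.73 in WT (log2 fold change 1.83, SE 0.28, limma adjusted p = 0.00369). Both overlap a gene on the other strand. RSL4 (AT1G27740, chromosome 1, 9654475 to 9656089, plus strand), a bHLH regulator of root hair growth, had 4.06, 3.31 and 3.01 RPKM in pkl, against 0.240, 0.925 and 0.555 in nrpd1, 2.41, 1.97 and 2.04 in nrpe1, and 1.93, 3.03 and 2.15 in WT (log2 fold change 1.60, SE 0.30, limma adjusted p = 0.0111). COW1 (AT4G34580, chromosome 4, 16515102 to 16518746, plus strand), a phosphatidylinositol transfer protein of root hair tips, had 3.32, 5.33 and 4.30 RPKM in pkl, against 0.448, 0.889 and 0.973 in nrpd1, 2.33, 3.41 and 4.27 in nrpe1, and 2.91, 3.72 and 4.28 in WT (log2 fold change 1.38, SE 0.27, limma adjusted p = 0.0132).

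RSL1 (AT5G37800, chromosome 5, 15036066 to 15037884, plus strand), a bHLH gene of the same family, was lower, with 0.358, 0.0504 and 0.0678 RPKM in pkl, against 0.817, 0.666 and 1.3 in nrpd1, 0.326, 0.601 and 0.296 in nrpe1, and 0.601, 0.497 and 0.446 in WT (log2 fold change -1.63, SE 0.38, limma adjusted p = 0.0311). The pkl and nrpe1 ranges overlapped. Calls were lost without pkl replicate 1, 2 or 3 or any nrpe1 library for EXPA18 (adjusted p = 0.0511 to 0.126), without pkl replicate 1 or 2 for RSL4 (0.0519 and 0.0533), without pkl replicate 2 or 3 for COW1 (0.0855 and 0.0642), and without pkl replicate 2 or 3, nrpd1 replicate 3, nrpe1 replicate 2 or WT replicate 2 for RSL1 (0.0503 to 0.162). With the block 6 root hair genes were higher and 1 lower. None of 13 genes of other root tissues was called, with a median of 0.00 and summed levels of 1109 to 1453 RPKM in pkl, 1415 to 1502 in nrpd1, 1160 to 1565 in nrpe1 and 1366 to 1751 in WT. The part of root hair number or root mass in the root hair values was not tested.

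**Figure D5:**
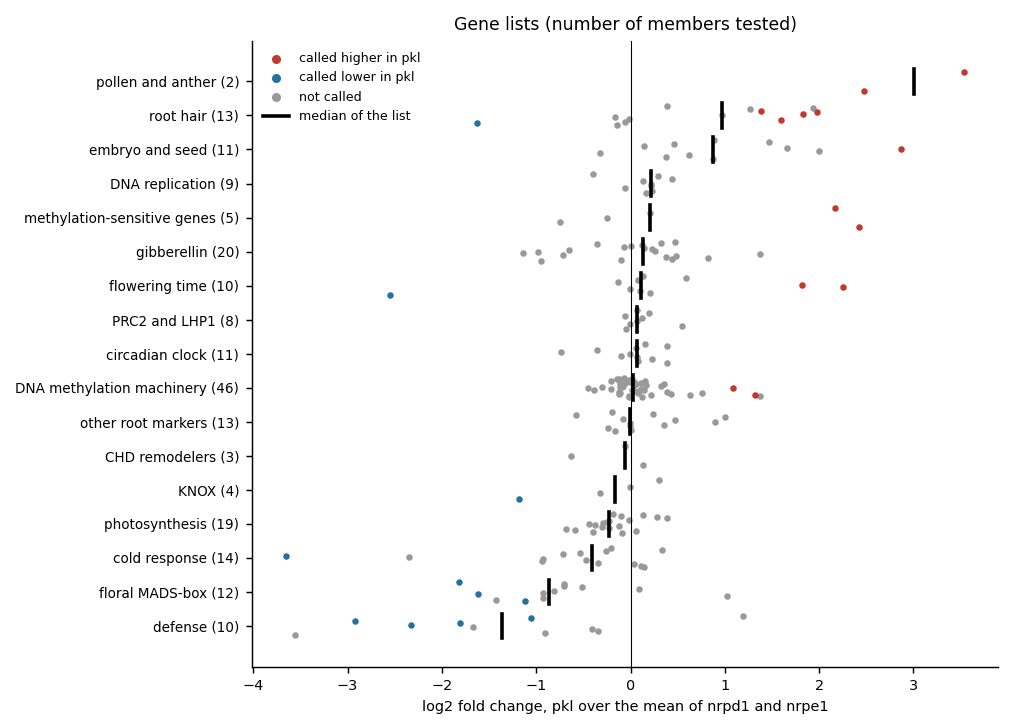
Log2 fold change, pkl over the mean of nrpd1 and nrpe1 (horizontal axis), of the tested members of each gene list, 1 list per row, with called members coloured and a tick at the list median. List medians run from 3.01 for anther and pollen genes, of which only 2 of 11 were tested (0.34 over 8 without the filter on low values), to -1.37 for the defense list, and members of most lists spread on both sides of 0.

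Lists for green tissue and the clock showed no calls. None of 19 photosynthesis genes was called, with a median of -0.23 and summed levels of 55431 to 96385 RPKM in pkl, 61668 to 104319 in nrpd1, 65853 to 103772 in nrpe1 and 66602 to 111354 in WT. None of 11 clock genes was called, with a median of 0.06. In every genotype, replicate 1 lay above replicates 2 and 3 in 6 of them and below both in the other 5. The share of all tested genes with replicate 1 apart in this way was not counted. The pattern is thus not shown to be particular to the clock. CCA1, a morning gene, had 12.7 RPKM in pkl, 17.4 in nrpd1, 15.1 in nrpe1 and 12.6 in WT in replicate 1, and between 0.584 and 1.82 in replicates 2 and 3. Chloroplast genes (107 tested of 133) and mitochondrial genes (49 of 146) had no calls, with medians of -0.22 and -0.02. The chloroplast median was 0.34 against nrpd1 and -0.85 against nrpe1, and the mitochondrial median 0.47 and -0.47. With the replicate block ATCG00905 and ATMG01220 were higher (adjusted p = 0.0304 and 0.0260) and ATCG00230, ATCG00560 and ATCG01160 lower (0.0247, 0.0441 and 0.0435).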

How the data were processed

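Poly(A) RNA from seedlings of 4 genotypes (12 libraries, 3 each) was sequenced by the authors. Per their processing notes, the authors used CASAVA 1.8, Trim Galore 0.4.0, Subread 1.5.1, edgeR and the TAIR10 genome, and reads were aligned with subread and counted over genes and TEs with featureCounts. The deposited values are RPKM made by the authors from those counts. Use of strand and the treatment of reads with several positions in counting are not given in the sources used here. Groups and replicate numbers came from the sample titles. No per-sample column was left unused.

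All 12 libraries were fitted with 1 mean per genotype in limma 3.58.1 (R 4.3.3, trended variance) on log2(RPKM + 0.1), after dropping features that reached 0.1 RPKM in fewer than 3 of the 12 libraries. All p-values are two-sided and adjusted over all 23669 features by the Benjamini-Hochberg method. The comparisons were pkl against both RdDM mutants (their mean) and each alone, nrpd1 against nrpe1, and pkl and the RdDM mean against WT. RPKM steps gave whole reads for 100% of the 28130 features above 0 (tolerance 1e-06), and their sums reached 99.9998% or more of every library. A recovered number is too low where the 12 values of a feature have a common factor. The limit of detection was 3 reads per library, and intervals are exact conditional binomial intervals on summed reads. Floors and intervals cover counting error only. With voom on these reads 794 features were called, 687 of the 749 called on RPKM among them. The fit was tested on simulated data.

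Same-numbered libraries of different genotypes deviated together (correlations 0.149 to 0.600 over 18 pairs, against -0.479 to 0.229 over 36 pairs with different numbers), so the number pairs them. A fit with the number as a block is given where it changes a call or moves a count by over 1.5 times.

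Named are PKL, NRPD1, NRPE1 and ROS1, the 3 loci that the study singled out, and per direction the 8 genes and 5 TEs with the largest absolute fold change among called features with all pkl libraries beyond all 6 RdDM libraries, called list members (at most 4 per list and direction), and per direction the 3 most changed genes with a mean of at least 5 RPKM. The comparison, the lists and this rule were chosen with earlier results of these data known. Coordinates, names and promoters are from RefSeq on TAIR10.1. Copies of named genes (at least 95% identity over at least 100 bases) were found with blastn 2.17.0, and TEs were not searched. Alternatives were other pseudocounts, filters and scalings, the compared genotypes alone, the block, voom and leaving out each library.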

Additional observations from a re-analysis of the deposited data

Results flagged for a closer look

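In 8 of the genes named by the rule, nrpd1 and nrpe1 differed by a test of that difference itself (limma, log2 fold change, nrpd1 over nrpe1). NRPD1 and NRPE1, the mutated genes, differed by -1.15 (adjusted p = 0.0375) and 1.71 (adjusted p = 0.0263). ROS1 was lower in nrpd1 by -3.23 (adjusted p = 4.91e-05) and MRD1 higher by 3.88 (adjusted p = 1.38e-06). The root hair genes EXPA18, EXPA7, RSL4 and COW1 were lower in nrpd1, at -3.60 (adjusted p = 0.00870), -2.43 (adjusted p = 0.00585), -1.87 (adjusted p = 0.0392) and -2.00 (adjusted p = 0.0137). In a fit of the nrpd1 and nrpe1 libraries alone, MRD1 was still called (adjusted p = 0.00773), and the other 7 were not, ROS1 with an adjusted p of 0.0504 and the rest with 0.236 to 0.432. Over 20 alternatives the call held in 20 for MRD1, 19 for ROS1 and EXPA7, 17 for EXPA18 and COW1, 14 for NRPE1, and 4 for NRPD1 and RSL4. In all 8 genes the 3 nrpd1 libraries and the 3 nrpe1 libraries did not overlap. The genes were picked by this same difference, so the lack of overlap is a description and not a further test. The share of all tested features without such overlap was not counted.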

How the results depend on the processing

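No call of the comparison with both RdDM mutants changed sign under any alternative. Counts moved by over 1.5 times in these cases. With a pseudocount of 1 there were 180 genes higher, 127 lower, 9 TEs higher and 22 lower, and 361 features called against nrpd1, 275 against nrpe1, 94 between nrpd1 and nrpe1 and 248 between pkl and WT. With the filter raised to 1 RPKM in 3 libraries there were 239 genes higher, 9 TEs higher and 27 lower, and 94 features between nrpd1 and nrpe1. With only the compared genotypes fitted, 454, 241, 6 and 280 features were called against nrpd1, against nrpe1, between nrpd1 and nrpe1, and between pkl and WT. The replicate block gave 539 genes higher, 481 lower and 1041, 911 and 829 features called in pkl against nrpd1, nrpe1 and WT. It kept 748 of the 749 calls, 1 of the 64 lower TEs being lost. Among named features it changed only the call of AT1TE42205. Leaving out 1 library gave 213 to 361 genes higher, 171 to 306 lower, 12 to 21 TEs higher and 46 to 65 lower, 455 to 726 features called against nrpd1, 301 to 524 against nrpe1, 76 to 148 between nrpd1 and nrpe1, 265 to 466 between pkl and WT and 99 to 146 between the RdDM mean and WT. With replicates 2 and 3 only, chosen after seeing the data, 352 genes were higher and 355 lower. The cause of these shifts was not tested, beyond fewer samples or features in some fits. Over 57 named features and 1190 alternative values, 1103 kept their call, 86 lost it, 1 gained it and none reversed, with 17 features concerned. Depth limits the lowest features, since 42 of the 64 lower TEs had no read in pkl and 10 of the 20 higher TEs none in the RdDM mutants.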
